A study of Arabidopsis thaliana with 6 samples.

Results

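Leaves of Arabidopsis thaliana plants chilled on soil were compared, gene by gene, with leaves of plants placed on plates with polyethylene glycol (PEG), a large inert polymer that lowers the water potential of the medium and withdraws water from the plant. The comparison used 4 of the 6 RNA-seq libraries of the series: the 2 cold libraries and the 2 PEG libraries, chosen by their labels. Plants were 2 weeks old and belonged to the Col-0 accession or to the lsm1a lsm1b double mutant, which is mutated in both genes for the first subunit of the LSM1-7 ring that promotes mRNA decapping. All were raised in long days at 90 µmol m-2 s-1. The chilled plants grew on soil and spent 24 h at 4 °C in long days at 40 µmol m-2 s-1. The PEG plants grew on GM medium and were moved to plates with 55% PEG for 10 h, with no separate light level given. Each condition had 1 Col-0 and 1 lsm1a lsm1b library, and unstressed plants were not analysed here. Soil or plate growth, duration, light and the form of the deposited files changed together with the stress and cannot be told apart from it, so every difference below is between 2 states of leaves. The 2 genotypes stood in for replicates, and nothing in the labels says whether plants were pooled. The p-values set each cold to PEG ratio against a spread estimated from the 2 genotypes and shared in part over genes. They do not measure a spread between replicate plants. In whole leaves, fewer cells of a type and less RNA per cell cannot be told apart.

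Cold and water loss are read by plant cells through partly shared routes. In cold, transcription factors of the CBF family (also called DREB1) bind a short promoter element with the core CCGAC and switch on COR genes, many of which encode hydrophilic proteins that protect membranes. Under water loss the hormone abscisic acid (ABA) accumulates, its receptors of the PYR/PYL family capture clade A protein phosphatases, SnRK2 kinases are released, and ABF transcription factors bind promoter elements with the core ACGTG in front of dehydrin and LEA genes. Some stress genes, RD29A among them, carry both elements.

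The files listed 18168 genes for cold and 18734 for PEG. Of these, 17037 were in both, 1131 in the cold files alone and 1697 in the PEG files alone. Total counts were 12422329 (Col-0 cold), 10289392 (lsm1a lsm1b cold), 20527483 (Col-0 PEG) and 18043773 (lsm1a lsm1b PEG). Levels below are CPM, the count per gene scaled to a common library size, after TMM, a method that sets the bulk of genes equal between libraries, or RPKM where genes are compared with each other. The mutated genes were low in the libraries labelled as mutant: LSM1A had 18.0 and 12.1 CPM in the Col-0 cold and PEG libraries against 1.0 and 1.35 in the mutant ones, and LSM1B had 13.3 and 10.2 CPM against 3.90 and 5.09. The leaf mesophyll genes RBCS1A, CAB1 and RCA were abundant in all 4 libraries, the lowest of these levels being 424 CPM for RCA in the lsm1a lsm1b PEG library. The median gene differed by 0.32 on the log2 scale between the 2 cold libraries and by 0.27 between the 2 PEG libraries, against 0.76 between cold and PEG in either genotype.

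Chilled soil leaves and PEG plate leaves differed at 6005 of 16973 genes tested, which is 35.4% of them (edgeR's quasi-likelihood test with genotype as a block, Benjamini-Hochberg adjusted p under 0.05). Of these, 2985 (17.6%) were higher in cold and 3020 (17.8%) were lower, and 5033 differed at least 2-fold. The log2 ratio of cold to PEG had a median of -0.02 over all genes tested. Both cold libraries stood above both PEG libraries at 36.0% of genes and below both at 37.0%. Among the called genes 6003 had the same sign in both genotypes. The 2 exceptions, named after their values were seen, were AT5G66052 and AT5G66053, overlapping transcripts on chromosome 5 with 51.3 and 392 CPM and 12.8 and 107 CPM in the Col-0 cold and PEG libraries and at most 0.400 CPM in either mutant library. With 3 libraries the genotype term cannot be fitted, so fits that leave out a library also drop the block (with all 4 libraries and no block, 2741 were higher and 2720 lower). In such fits, without the Col-0 PEG library or without the lsm1a lsm1b PEG library edgeR called 0 genes (5235 and 5548 had an unadjusted p under 0.05, and the lowest adjusted p was 0.0736 and 0.0616). Without the Col-0 cold library 2637 were higher and 2456 lower, and without the lsm1a lsm1b cold library 2361 and 2217.

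**Figure D1:**
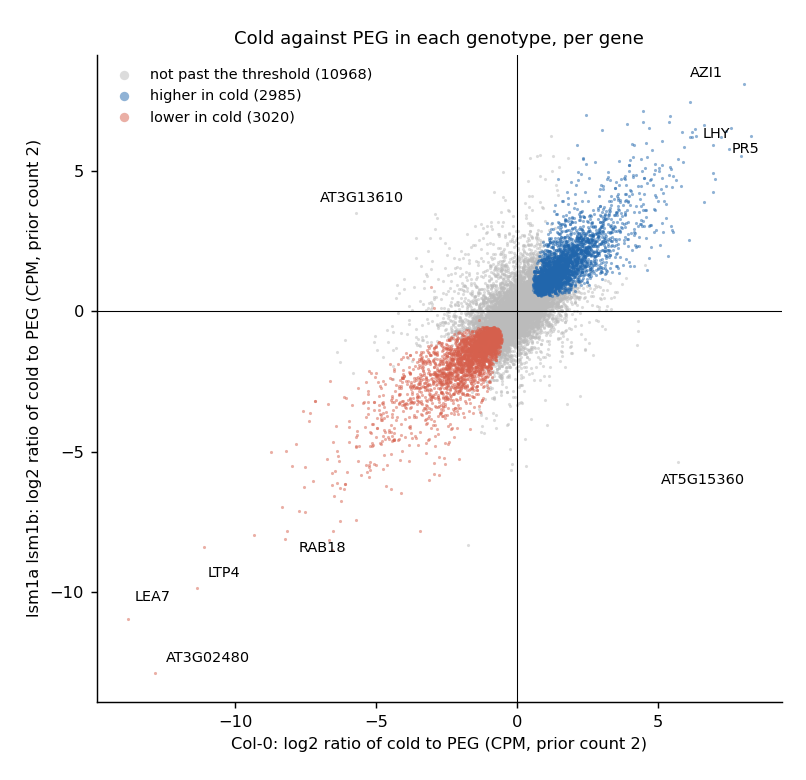
Each point is a gene, with its log2 ratio of cold to PEG in Col-0 on the x axis and in lsm1a lsm1b on the y axis (CPM, prior count of 2), coloured by the edgeR call. The 2985 genes higher in cold lie at the upper right and the 3020 lower at the lower left, with LEA7 and AT3G02480 at the far lower left and AT5G15360 and AT3G13610 of opposite sign in the 2 genotypes.

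The 10 largest ratios on the cold side belonged to genes at 21.2 CPM or less in the PEG leaves of either genotype. AZI1, a lipid-transfer-like protein that primes systemic defence, had 645 and 817 CPM in the Col-0 and lsm1a lsm1b cold libraries against 2.31 and 2.85 in the PEG libraries. Both chilled libraries were far above both PEG libraries, with a log2 ratio of 8.14 ± 0.29 (SE, 2 libraries a side; adjusted p = 0.00543, edgeR). XTH6, a xyloglucan endotransglucosylase that remodels the cell wall, had 179 and 101 CPM against 0.443 and 1.19, and BBX18, a B-box zinc finger protein of light signalling, had 119.7 and 137 CPM against 1.08 and 1.25. The iron-sulphur protein NEET followed the same order, with 128 and 156 CPM against 0.541 and 1.56. PR5, a thaumatin-like defence protein, was high in cold too, but 183 CPM in Col-0 stood well below 1578 CPM in lsm1a lsm1b, and the PEG libraries had 1.08 and 21.2. The other 5 of the 10 largest ratios belonged to AT5G48490 (lipid-transfer family), AT2G25510 (uncharacterised), AT2G41090 (calcium-binding EF-hand family), AT1G29660 (GDSL lipase family) and AT5G08760 (uncharacterised), with log2 ratios from 6.52 to 6.93.

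The 10 lowest ratios belonged to genes at 3.5 CPM or less in the chilled leaves, RAB18 excepted, and abundant in the PEG leaves. AT3G02480, a late embryogenesis abundant (LEA) family protein, had 0.525 and 0.400 CPM in the cold libraries against 4829 and 3969 in the PEG libraries. LEA7 had 0.263 and 3.5 CPM against 5615 and 7238, LTP4, a lipid transfer protein, had 0.438 and 1.5 CPM against 1491 and 1508, and the dehydrin RAB18 had 43.5 and 45.7 CPM against 12330 and 10299. In each of these genes both PEG libraries lay far above both cold libraries. The fitted log2 ratios were -13.19 for AT3G02480, -12.10 for LEA7, -10.67 for LTP4 and -7.98 for RAB18, and those of the first 3 rest on few cold counts (3 to 35 per library). The remaining 6 of the 10 lowest were AT2G37870 (lipid-transfer family), AT1G07985, AT2G05510 (glycine-rich), AT4G02360, MLP328 and MIZ1, with fitted ratios from -9.66 to -7.54. MIZ1, which acts in root hydrotropism, had 0.876 and 1.5 CPM in cold against 213 and 225.

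The promoters of 6 genes of the cold and ABA lists that follow are shown. As with the lists, these genes were chosen with results of these data known. KIN2 and COR15B were higher in cold, RD29B, RAB18 and LEA7 lower, and RD29A did not pass the test. Each line is the 250 bases upstream of the transcript start given in the files, read from the TAIR10.1 genome (RefSeq) in the direction of transcription. Capitals mark the DRE core CCGAC, the ABRE core ACGTG and the evening element AAATATCT, searched on both strands, so that capitals reading GTCGG or CACGT are matches on the other strand. The letters CACGTG hold a match on each strand. The windows are chr5:21240599-21240848 (plus strand) for RD29A, chr5:21236806-21237055 (plus) for RD29B, chr5:26519243-26519492 (minus) for RAB18, chr1:19619495-19619744 (plus) for LEA7, chr5:5211661-5211910 (plus) for KIN2 and chr2:17709946-17710195 (minus) for COR15B.
RD29A: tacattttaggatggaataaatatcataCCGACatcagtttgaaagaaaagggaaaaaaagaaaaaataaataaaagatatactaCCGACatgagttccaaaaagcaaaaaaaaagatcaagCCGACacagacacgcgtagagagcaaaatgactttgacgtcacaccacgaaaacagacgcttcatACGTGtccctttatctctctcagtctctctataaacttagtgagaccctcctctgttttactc
RD29B: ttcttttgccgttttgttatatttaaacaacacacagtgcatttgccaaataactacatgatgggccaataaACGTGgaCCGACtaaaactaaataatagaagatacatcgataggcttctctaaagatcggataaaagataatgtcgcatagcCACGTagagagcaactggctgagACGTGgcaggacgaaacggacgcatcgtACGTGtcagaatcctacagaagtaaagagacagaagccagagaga
RAB18: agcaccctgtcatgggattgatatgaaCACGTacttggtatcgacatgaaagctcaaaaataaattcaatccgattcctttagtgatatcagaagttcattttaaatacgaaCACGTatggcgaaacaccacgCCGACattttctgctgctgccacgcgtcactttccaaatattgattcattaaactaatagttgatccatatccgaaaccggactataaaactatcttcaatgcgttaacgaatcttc
LEA7: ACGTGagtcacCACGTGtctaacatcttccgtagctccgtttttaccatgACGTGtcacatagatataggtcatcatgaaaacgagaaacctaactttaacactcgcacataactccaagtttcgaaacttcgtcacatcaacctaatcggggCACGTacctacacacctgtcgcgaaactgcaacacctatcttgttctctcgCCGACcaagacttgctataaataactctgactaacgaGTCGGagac
KIN2: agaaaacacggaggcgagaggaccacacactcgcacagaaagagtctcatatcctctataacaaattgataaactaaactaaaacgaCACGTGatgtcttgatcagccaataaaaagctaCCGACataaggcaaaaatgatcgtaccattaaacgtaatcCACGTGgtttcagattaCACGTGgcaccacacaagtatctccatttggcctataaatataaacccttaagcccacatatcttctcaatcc
COR15B: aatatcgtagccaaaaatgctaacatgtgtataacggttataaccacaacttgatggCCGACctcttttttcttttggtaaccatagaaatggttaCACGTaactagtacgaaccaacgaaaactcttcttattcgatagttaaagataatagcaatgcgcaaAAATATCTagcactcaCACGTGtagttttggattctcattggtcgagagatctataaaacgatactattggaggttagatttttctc

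RD29A held 3 CCGAC matches and 1 ACGTG, its neighbour RD29B 1 and 4, RAB18 1 and 2, LEA7 2 and 5, KIN2 1 and 6, and COR15B 1 and 3 with 1 AAATATCT. Of 16867 tested nuclear genes, 15.6% held CCGAC, 26.8% ACGTG and 4.87% AAATATCT in the same window, and 83 of the 810 genes with both CCGAC and ACGTG had overlapping matches. ACGTG was held by 33.6% of the genes lower in cold, 25.4% of those higher in cold and 25.3% of those not called. CCGAC was held by 14.8%, 14.8% and 16% of the same groups. Among genes at least 16-fold apart, ACGTG was held by 47.8% of 157 lower in cold and by 43.8% of 121 higher in cold, so both extremes stood above the other genes. The 18 tested genes of the CBF and COR list and the 26 of the ABA-responsive list, some of which are in both, were alike in these windows: 44.4% and 34.6% held CCGAC and 66.7% and 69.2% held ACGTG. Other lists had high shares of ACGTG too, with 70.8% in the clock list, 57.1% in the antenna list and 50% in the Calvin cycle list. A match describes the letters in the window and is not a measured binding site. The starts are those of the files, and 1315 of 16792 genes had the same start and end as in the reference annotation.

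Among genes of the CBF cold response, COR15B and KIN2 stood higher in the chilled leaves, while several other COR genes were abundant in both leaf states and did not pass the test. Of 22 members matched, 4 were in the cold files alone and 18 were tested. Of the 18 tested, 4 were higher in cold and 1 lower, which is 22.2% and 5.56% of them against 17.6% and 17.8% of all genes. The median log2 ratio was 0.06 (all genes, -0.02), and -0.08 with total count scaling. COR15B, a chloroplast protein that stabilises membranes on freezing, had 2765 and 1518 CPM in cold against 235 and 129.8 in PEG (log2 ratio 3.55 ± 0.30, SE; adjusted p = 0.00631, edgeR). KIN2, a small hydrophilic cold protein, had 3133 and 2589 CPM against 485 and 405 (2.68 ± 0.32; adjusted p = 0.00954, edgeR). In both genes the chilled libraries stood well above the PEG libraries, in either genotype. RAV1, a growth-repressing transcription factor (log2 ratio 4.60), and ICE1, the upstream activator of CBF genes (1.39), were the other members higher in cold. HSFC1, a heat shock factor of the first wave of the cold response, was lower, with 28.1 and 25.7 CPM against 155 and 99.5.

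Other COR genes were abundant on both sides. COR47, a dehydrin, had 7464 and 4761 CPM in cold and 7046 and 6290 in PEG, and ERD10, another dehydrin, had 4017 and 3500 against 4869 and 5140. The levels of COR47 overlapped between the conditions and those of ERD10 did not, and neither passed the test (log2 ratios -0.16 and -0.42). RD29A had 8197 and 6768 CPM in cold against 3115 and 2337 in PEG, and COR15A had 8604 and 5562 against 4038 and 1771. Both were higher in both chilled libraries, with log2 ratios of 1.47 and 1.37, but their adjusted p of 0.0568 and 0.0731 (edgeR) missed the threshold. DESeq2 and limma-voom called both higher in cold, with an adjusted p of 1.49e-05 and 0.0166 for RD29A and 0.000127 and 0.0227 for COR15A. The rest did not pass either: KIN1 (-0.54), LTI30 (-0.24), COR413IM1 (0.48), COR413IM2 (0.17), COR413-PM1 (-0.05), COR27 (-0.12), ICE2 (0.42), ZAT12 (-0.29) and ERD14 (-1.03). DESeq2 and limma-voom called ERD14 lower in cold, with an adjusted p of 0.00494 and 0.0277. ZAT12, a zinc finger repressor, had ratios of -1.65 in Col-0 and 0.99 in lsm1a lsm1b, and COR27, a clock-linked cold gene, had 1.11 and -1.36. KIN1 and KIN2, and COR15A and COR15B, are near-identical neighbours whose reads the counting could have split, so the contrast within each pair is uncertain. The remaining 4 members were in the cold files alone: CBF2 at 11.9 and 14.0 RPKM in Col-0 and lsm1a lsm1b, DREB1A (CBF3) at 3.10 and 6.42, CBF1 at 1.36 and 2.36, and GolS3, a galactinol synthase, at 503 and 282. Every listed gene reached 1.0 RPKM in at least 1 library of its condition. The rule by which genes were left out was not stated. A gene left out of the files of a condition may have been low there, but its level is not known.

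**Figure D2:**
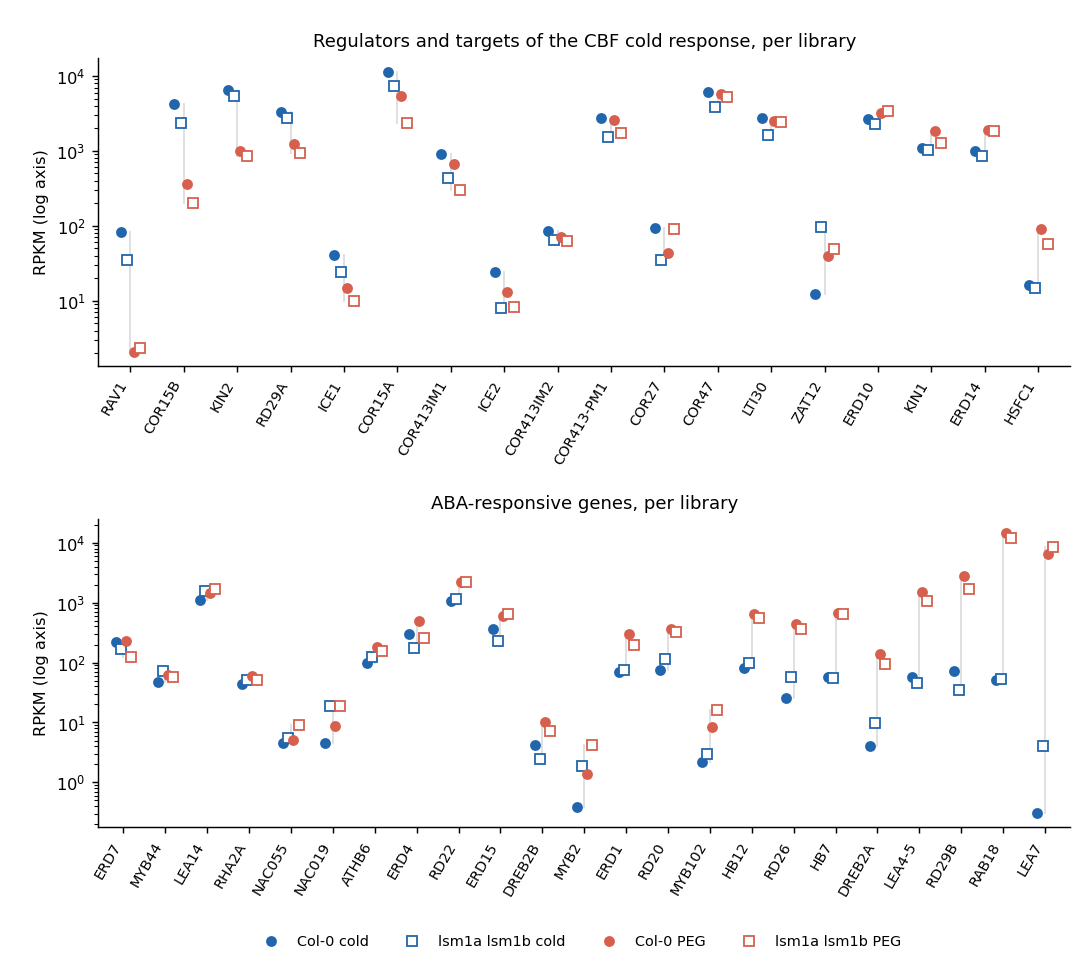
RPKM on a log axis in each of the 4 libraries for the tested members of the CBF and COR list (top) and of the ABA-responsive list not shown above (bottom); filled circles are Col-0, open squares lsm1a lsm1b, blue cold and red PEG. COR47, ERD10 and LTI30 sit close together in the 4 libraries, COR15B and KIN2 are high in cold, and RAB18 and LEA7 are high in PEG.

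Genes of ABA metabolism split between the states. NCED3, the dioxygenase that sets the rate of stress-induced ABA synthesis, had 17.8 and 80.8 CPM in cold against 644 and 374 in PEG, so both PEG libraries were higher and the mutant cold library stood above the Col-0 one (log2 ratio -3.67 ± 0.86, SE; adjusted p = 0.0355, edgeR). CYP707A1, which breaks ABA down, was lower in cold as well, with 7.71 and 6.91 CPM against 94.5 and 96.5 (-3.71), as were the last-step oxidase AAO3 (-1.29) and its cofactor sulphurase ABA3 (-0.91). ABA1, the zeaxanthin epoxidase that also serves the xanthophyll cycle, was higher in cold (2.66), as were the glucosidases BGLU18 (2.94) and BGLU33, which free ABA from its stored glucose ester, the ABA glucosyltransferase UGT71B6 (1.87), NCED5 (2.46) and CYP707A2. Of 13 tested members 6 were higher and 4 lower in cold (1 higher without the genotype block), and ABA2 (-0.18), CYP707A3 (-0.91) and CYP707A4 (0.86) did not pass. Among all genes tested the shares higher and lower were 17.6% and 17.8%. NCED5 rests on low counts, and without the lsm1a lsm1b cold library its ratio was -0.82.

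ABA receptors and signalling genes were mostly lower in the chilled leaves: 18 of 29 tested members (62.1%, against 17.8% of all genes) were lower and 2 higher, with a median log2 ratio of -1.61. The clade A phosphatases, which ABA itself induces as a brake on its own signal, stood furthest apart. HAI1 had 1.66 and 8.61 CPM in cold against 408 and 231 in PEG (log2 ratio -6.15 ± 0.91, SE; adjusted p = 0.0138, edgeR), and HAI2 had 3.15 and 9.81 CPM against 279.8 and 170.3 (-5.22). ABI2 (-2.75), ABI1 (-1.61) and HAB1 (-1.38) were lower too, by less. Among the kinases SNRK2.3 (-2.96) and OST1 (-1.73), the guard cell ABA kinase, were lower, while SNRK2.8 was higher in cold with 70.9 and 31.6 CPM against 1.67 and 3.01 (4.37). The transcription factors ABI5 (-2.72), ABF4 (-1.92) and ABF3 (-1.90) were lower, and so was AFP1, an ABI5-binding repressor (-3.43). Of the receptors, PYL8 was higher in cold (1.51) and PYR1 lower (-2.22). PYL2, PYL9, PYL4, ABF1, PYL5, PYL7, PYL1, AFP2 and AHG3 did not pass, with log2 ratios from -1.18 to 0.88. DESeq2 called AHG3 lower in cold, with an adjusted p of 0.0273. HAI3 (72.3 and 85.3 RPKM), SNRK2.7, AHG1 and ABI3 were in the PEG files alone and PYL6 in the cold files alone.

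ABA-responsive genes showed a low side and no high side in cold: 13 of 26 tested members were lower, 0 higher, with a median log2 ratio of -1.26. Among all genes tested 17.8% were lower and 17.6% higher. RD29B had 153 and 75.4 CPM in cold against 5835 and 3545 in PEG (-5.40 ± 0.41, SE; adjusted p = 0.00594, edgeR), while the ratio of its neighbour RD29A, given above, was 1.47 and missed the threshold. LEA4-5, a LEA protein of group 4, had 49.0 and 39.7 CPM against 1265 and 921. DREB2A, the drought counterpart of the CBF factors, had 5.87 and 14.4 CPM against 203 and 136, the NAC factor RD26 24.7 and 56.2 against 428 and 351, and the homeodomain factor HB7 76.9 and 73.7 against 906 and 869. In all of these both PEG libraries lay above both cold libraries, and the genotypes differed far less than the conditions. The other members lower in cold were HB12, MYB102, RD20, ERD1, DREB2B and ERD15. The 13 that did not pass, RD22, MYB2, ERD4, ATHB6, KIN1, NAC019, NAC055, LTI30, RHA2A, LEA14, MYB44, ERD7 and COR413IM1, had log2 ratios from -1.46 to 0.48. DESeq2 and limma-voom called RD22 lower in cold, with an adjusted p of 0.00668 and 0.0371. GEA6 (70.5 and 85.1 RPKM), XERO1, EM1 and M17 were in the PEG files alone. Markers of seeds, in which LEA and dehydrin genes are also abundant, were on the PEG side too. Of 11 seed markers, 10 were in the PEG files alone, and the remaining OLEO4 did not pass. The order of the genotypes varied among them. The cruciferin CRU3 had 91.8 and 234 RPKM in Col-0 and lsm1a lsm1b, CRA1 58.3 and 212, and the oleosin OLEO1 53.4 and 119. OLEO2 was higher in lsm1a lsm1b as well. CRU2 had 22.0 and 1.76 RPKM and SESA3 95.4 and 15.7. The other SESA genes were also higher in Col-0, SESA5 by little. The part of these seed markers in the LEA result was not tested.

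Osmolyte genes were divided between paralogues. Proline is made from glutamate by P5CS enzymes: P5CS1 was lower in cold, with 883 and 274 CPM against 1934 and 1457 (log2 ratio -1.77), and P5CS2 was higher, with 1170 and 944 CPM against 469 and 234 (1.66). Both passed the edgeR test, at an adjusted p of 0.0388 and 0.0207, so that the 2 genes were ordered in opposite ways in the 2 states. The enzymes that break proline down, ERD5 (-1.38) and P5CDH (-2.13), and ornithine aminotransferase OAT (-2.29) were lower in cold, and the transporters PROT3 (4.04) and PROT2 (0.81) were higher. That is 3 of 9 members higher and 4 lower. Galactinol synthases make the donor for raffinose sugars and split likewise. GOLS1 had 233 and 85.2 CPM in cold against 30.2 and 23.6 in PEG (2.40), whereas GOLS2 had 3.85 and 18.8 against 106 and 189 (-4.0) and GOLS4 had 0.525 and 3.0 against 33.9 and 69.7 (-5.08). GolS3, as given above, was in the cold files alone. Raffinose synthase RS5 was higher in cold (1.36), and RS2 did not pass and had opposite signs in the genotypes. Of the trehalose genes, TPPA (2.72) and TPS11 (0.87) were higher, TPPI (-4.75) and TPS10 (-0.87) lower. With the galactinol and raffinose genes that makes 4 higher and 4 lower of 13. Of all genes tested 17.6% were higher and 17.8% lower, and both osmolyte lists are described by their members alone.

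Starch and sucrose genes had 12 members higher and 12 lower of 46, with a median of -0.04. Of all genes tested 17.6% were higher and 17.8% lower, and the starch and sucrose list is described by its members alone. The large subunits of ADP-glucose pyrophosphorylase, the first step of starch synthesis, were ordered by isoform: APL1, the main leaf form, had 321 and 428 CPM in cold against 50.7 and 61.3 in PEG (2.73), while APL3 (-2.86) and APL4 (-3.92) were lower in cold. Granule-bound starch synthase GBSS1 was higher in cold (3.68), with 116 and 142 CPM against 9.55 and 10.5. Genes of starch breakdown and export went both ways. BAM3, a chloroplast beta-amylase, had the largest ratio of the list, with 3419 and 3252 CPM in cold against 59.9 and 38.6 in PEG (6.12), and BAM9 (1.94) and the plastid alpha-amylase AMY3 (1.26) were higher too. BAM1, a beta-amylase known for its induction by osmotic stress (-2.42), the maltose exporter MEX1 (-2.67) and DPE1 (-1.61) were lower. Sucrose synthases parted as well, with SUS1 at 1526 and 809 CPM against 279 and 189 (2.28) and SUS3 at 10.3 and 9.21 against 515 and 372 (-5.49). Sugar transporters went both ways: SUC1 (5.11), STP1 (3.45), STP4 (1.77) and TMT1 (0.77) were higher in cold. ESL1 (-1.39), SUC2 (-1.17), ERDL6 (-0.83) and TMT2 (-0.82) were lower. Genes induced by darkness or sugar shortage leaned to the PEG side, with 10 of 27 lower in cold and 3 higher, among them BZIP11 (-3.16), BCAT2 of branched amino acid breakdown (-3.03) and the F-box genes KMD4 (-2.62) and KMD1 (-2.42).

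Many nuclear genes of photosynthesis were higher in the chilled leaves, and in the Calvin cycle, antenna, photosystem and photoprotection lists none was lower. All 20 tested Calvin cycle members were higher, against 17.6% of all genes tested, with a median log2 ratio of 2.82, and the lowest of them was TIM (1.05). FBA1, a plastid aldolase, had 1151 and 885 CPM in cold against 46.7 and 36.8 in PEG (4.60 ± 0.27, SE; adjusted p = 0.0055, edgeR), and RCA, the activase of Rubisco, had 5085 and 4592 against 472 and 424 (3.43). RBCS1A, a Rubisco small subunit, had 13062 and 12059 CPM against 1600 and 1679 (2.94). In these genes the Col-0 and mutant libraries of a condition lay close together and far from those of the other condition. GAPA-2 (4.27) and SBPASE (3.19) followed.

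Light-harvesting antenna genes were higher at 19 of 21 members, 0 lower, with a median of 2.56. This count and those of the 3 lists below stand beside 17.6% higher and 17.8% lower among all genes tested. LHCB2.3 had 586 and 168 CPM in cold against 4.38 and 6.28 in PEG, LHCB3 2248 and 1040 against 76.4 and 84.8, LHCB2.1 2814 and 1632 against 62.3 and 221, and LHCB1.1 13699 and 3028 against 452 and 408. Here the Col-0 cold library was the highest of the 4 in each case. The summed level of the list was 77917, 30771, 10071 and 7968 CPM in the Col-0 cold, lsm1a lsm1b cold, Col-0 PEG and lsm1a lsm1b PEG libraries, so the 2 cold libraries were themselves far apart. LHB1B2 and LHCA2 did not pass (0.87 and 0.63). Several LHCB1 and small-subunit genes are near-identical copies, and the split of reads among them is uncertain. Photosystem and electron transport subunits were higher at 22 of 36, 0 lower (median 1.42), led by PSAN of photosystem I (3.55), PSBS, the sensor of energy quenching (3.09), PSBQ-1 (2.69) and PGRL1A of cyclic flow (2.47), and 14 did not pass, among them PSAG (-0.20), PSAH-1 (-0.11) and FD1 (-0.07). Chlorophyll genes were higher at 14 of 22 and lower at 2. The higher ones are mostly synthetic, with CHLH, the large subunit of magnesium chelatase, at 3260 and 2875 CPM against 149.5 and 89.5 (4.73), its activator GUN4 (4.22) and chlorophyllide oxygenase CAO (4.02), along with the chlorophyllase CLH1 (4.40). The lower ones are breakdown enzymes, PAO with 71.3 and 56.5 CPM against 596 and 493 (-3.09) and PPH (-1.47). Photoprotection genes were higher at 6 of 15, 0 lower, with the early light-induced ELIP2 at 606 and 522 CPM against 137 and 20.1. ELIP1 did not pass, with 446 and 570 CPM against 854 and 185 and ratios of -0.94 in Col-0 and 1.62 in lsm1a lsm1b. Total count scaling and the fit of all 6 libraries each called 1 photoprotection gene lower.

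Genes encoded in the chloroplast itself went the other way. Of 84 tested, 70 were lower in cold, 0 higher, with a median log2 ratio of -2.42, against 17.8% lower and 17.6% higher among all genes tested. ATCG00270 had 47.5 and 64.7 CPM in cold against 1650 and 1059 in PEG (-4.58 ± 0.42, SE; adjusted p = 0.00651, edgeR), and ATCG00440 had 19.9 and 14.4 against 409 and 261. ATCG00490 and ATCG00020 did not pass, with 51.9 and 80.7 against 140.1 and 43.8 CPM and 108 and 185 against 207 and 95.9 CPM, and in both the conditions overlapped. Chloroplast genes took 0.411% and 0.390% of counts in the cold libraries and 3.18% and 2.05% in the PEG libraries. Mitochondrial genes, with 0.00427% and 0.00461% against 0.0319% and 0.0350% of counts, were lower in cold at 9 of 21 tested, 0 higher, and 31 more were in the PEG files alone. Both organelles were thus lower in the chilled leaves, and how organelle RNA entered the libraries or the counting of each file set was not stated. With organelle genes left out before scaling edgeR called 2973 genes higher and 2975 lower.

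**Figure D3:**
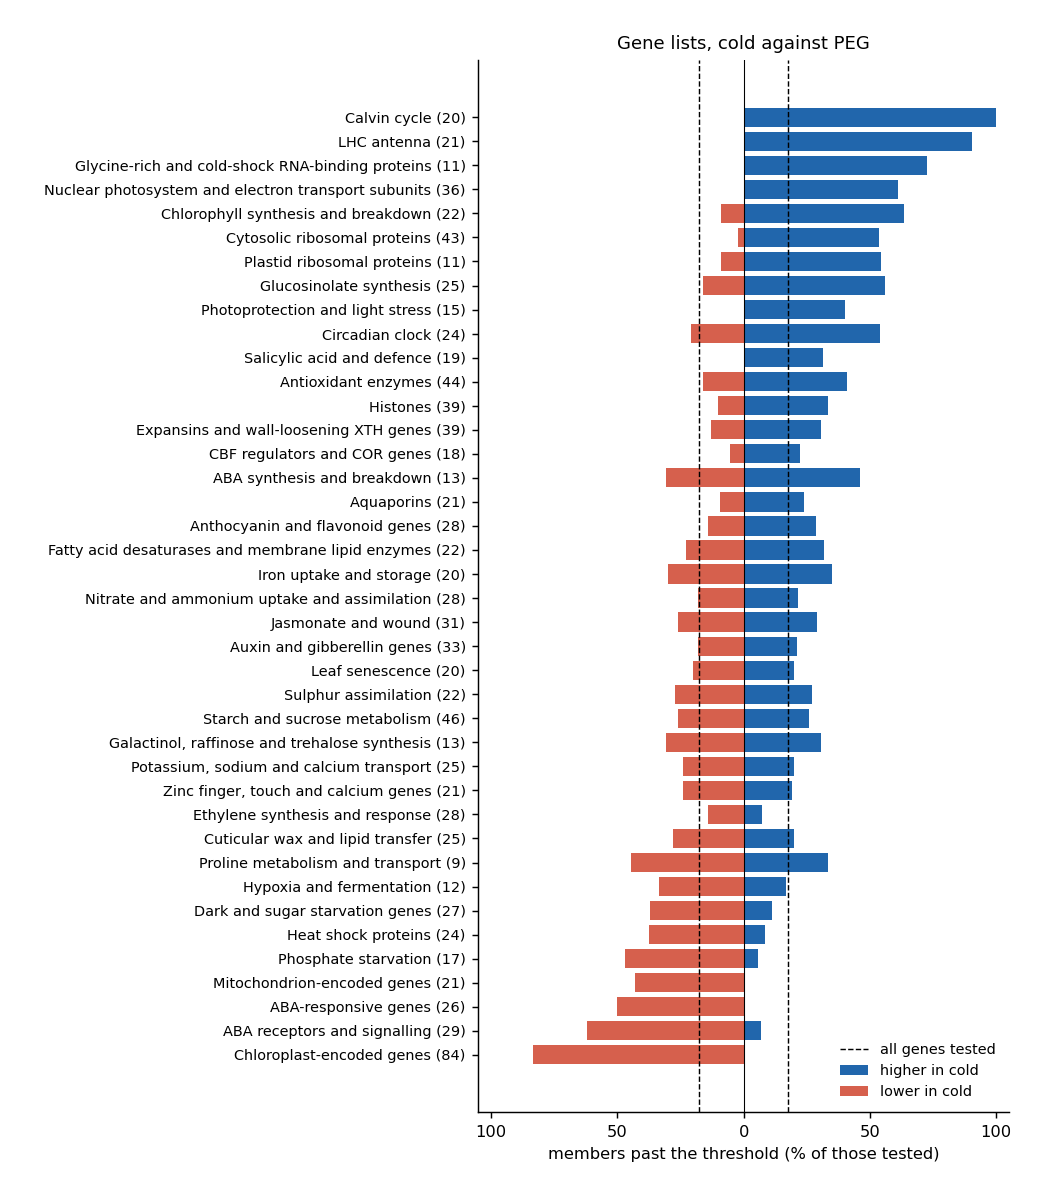
For each list with at least 9 tested members (number in parentheses), the bars give the percentage of tested members that were higher (blue, right) or lower (red, left) in cold by edgeR, beside the dashed lines for all genes tested (17.6% and 17.8%). Calvin cycle and antenna lists fill the right side, and chloroplast-encoded and ABA signalling lists reach furthest left.

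**Figure D4:**
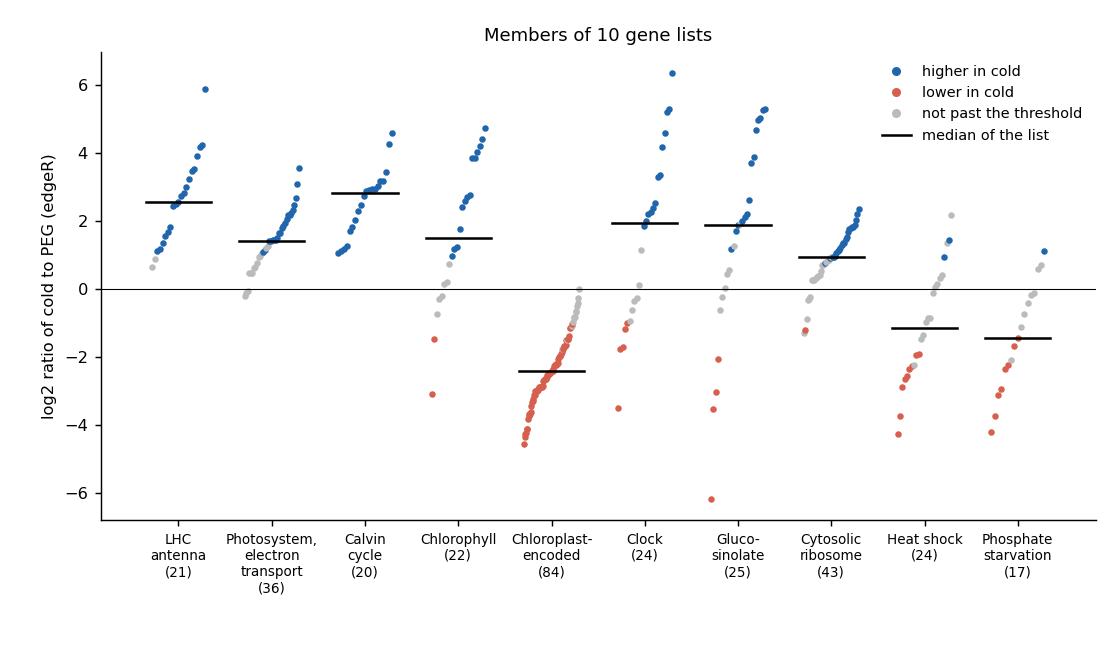
Each point is a tested member of 1 of 10 lists (number tested in parentheses), with its edgeR log2 ratio of cold to PEG on the y axis, coloured by call, and a bar at the list's median. The Calvin cycle points lie from 1.05 to 4.60 and the chloroplast-encoded points from -4.58 to 0.00, while the clock list spans -3.49 to 6.35.

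Clock genes differed in both directions. The clock runs as a loop in which morning genes LHY and CCA1 repress evening genes such as TOC1 and ELF4, and the evening genes repress them in turn. LHY had 215 and 266 CPM in cold against 2.81 and 3.06 in PEG (log2 ratio 6.35 ± 0.23, SE; adjusted p = 0.00543, edgeR), and CCA1 had 462 and 429 against 19.1 and 6.59 (5.29). The morning coactivator LNK2 (5.21), CDF1 (4.59) and CDF3 (4.17), repressors of flowering that peak in the morning, were higher as well. ELF4 had 10.6 and 3.90 CPM in cold against 76.5 and 73.2 in PEG (-3.49), and its partners in the evening complex LUX (-1.77) and ELF3 (-1.19) were lower, as were RVE2 (-1.70) and FKF1 (-1.0). TOC1 (-0.61) and GI (0.11) did not pass. In all, 13 of 24 members were higher and 5 lower, with a median of 1.93, against 17.6% and 17.8% of all genes tested. The hour of harvest was not stated, and it cannot be told apart from the treatment for these genes or for others with a daily rhythm, antenna genes included.

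RNA-binding proteins of cold acclimation were mostly higher in chilled leaves, and so were many of the ribosomal protein genes found by annotation. The counts of these lists stand beside 17.6% higher and 17.8% lower among all genes tested. Of 11 glycine-rich and cold shock domain proteins and RNA helicases, 8 were higher and 0 lower, with a median of 1.23. CSP1, a cold shock domain RNA chaperone, had 77.3 and 91.0 CPM in cold against 15.7 and 15.3 in PEG (2.44), and GRP7, a glycine-rich protein under clock control, had 4386 and 2983 against 666 and 858 (2.26). The helicase STRS2 (1.93) and GRP2 (1.56) followed, and GRP8 (0.74) did not pass. Genes listed as cytosolic ribosomal proteins were higher at 23 of 43 and lower at 1, by smaller steps (median 0.93). The acidic stalk gene AT2G27710 had 279 and 338 CPM against 59.4 and 60.3. This list was gathered by gene name and annotation, which can miss members and may take in others, such as RPL21C (1.83). The single member lower was AT1G26910 (-1.22). Plastid ribosomal proteins were higher at 6 of 11 (3 with a 2-fold minimum) and lower at 1, and histone genes higher at 13 of 39 and lower at 4. Among the latter AT2G18050, the linker histone HIS1-3, known for its induction by drought and ABA, had 3.24 and 0.501 CPM in cold against 176 and 110.1 in PEG (-6.44).

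Membrane lipid enzymes were found on both sides. The plastid desaturases were higher in cold: FAD8, known for its activity at low temperature, had 66.6 and 97.6 CPM against 8.37 and 9.13 (3.20), and FAD5 (3.13) and FAD7 (1.47) stood with it, as did MGD1, which makes the main plastid galactolipid (2.04). FAD2, the desaturase of the endoplasmic reticulum, was lower in cold with 297 and 157 CPM against 1936 and 573 (-2.29), and so was phospholipase PLDDELTA (-2.36). Of 22 members 7 were higher and 5 lower, and the lower ones include the lipid transfer proteins LTP4 and LTP3 (-6.64). Genes of the surface wax and cutin gave 5 higher and 7 lower of 25. The acyl-CoA synthetase CER8 (3.27) and GPAT8 of cutin synthesis (3.07) were on the cold side. The elongase KCS2 (-4.48), LTP2 (-3.30) and MYB94, a wax activator (-2.90), were on the PEG side. Of all genes tested 17.6% were higher and 17.8% lower, and the lipid and wax lists are described by their members alone.

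Cell wall and secondary metabolism genes differed by member. The counts of each list below stand beside 17.6% higher and 17.8% lower among all genes tested. A list of expansins and XTH enzymes, which loosen walls, also holds the polysaccharide synthases CSLA9, CESA1, CESA3 and CESA6. Of its 39 tested members 12 were higher in cold, CSLA9 (1.83) among them, and 5 lower, with XTH9 (3.24), EXPA6 (2.59) and XTH8 (2.37) after XTH6, and EXLB1 at 8.76 and 3.5 CPM against 223 and 272 (-5.42), XTH22 (-3.45), EXPA9 (-2.99) and EXLA1 (-2.53) lower. Glucosinolate genes were higher at 14 of 25 and lower at 4 (median 1.89). BCAT4 of the aliphatic branch, the first enzyme of methionine chain elongation, had 203 and 153 CPM against 4.63 and 4.26 (5.31), and CYP79F1 of the same branch had 258 and 289.6 against 8.52 and 8.82 (4.98). ESM1 (5.26) and FMO_GS-OX1 (5.05) went with them. The lower members were CYP81F4 (-6.17) and MYB34 (-2.06) of the indolic branch, NSP5 (-3.03), and PYK10, a root beta-glucosidase (-3.53). Phenylpropanoid and flavonoid genes gave 8 higher and 4 lower of 28, with MYBL2 (2.61), 4CL3 (2.49), PAL2 (2.28) and CHS (2.0) against PAL4 (-3.21), 4CL2 (-2.53), F3'H (-2.32) and 4CL1 (-1.67). A list of mostly antioxidant enzymes was higher at 18 of 44 members and lower at 7. It also holds RBOHD (0.98, higher) and RBOHF (-2.31, lower), oxidases that produce superoxide, and the kinase OXI1. The peroxidase GPX7 (4.03), the glutathione transferase GSTF6 (3.23) and the plastid superoxide dismutase CSD2 (2.86) led the higher members. The catalases parted, with CAT2 at 1664 and 2379 CPM against 353 and 252 (2.74) and CAT1 at 75.5 and 80.1 against 199.5 and 291 (-1.63). ALDH7B4, an aldehyde dehydrogenase (-2.79), GSTU24 (-2.47) and DHAR2 (-1.77) were lower as well.

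The salicylic acid and defence genes that passed the test were on the cold side, and the median ratio of the list was larger in the mutant pair. Of 19 tested members 6 were higher and 0 lower (median 1.52), against 17.6% and 17.8% of all genes tested. The median ratio was 0.56 in Col-0 and 2.78 in lsm1a lsm1b. In Col-0 the ratio was below 0 for WRKY60 (-2.03), NPR3 (-1.28), GRX480 (-0.93), WRKY46 (-0.55), WRKY40 (-0.49) and EDS5 (-0.41), and above 0 for the other members. WRKY70, a transcription factor that favours salicylic acid over jasmonate responses, had 16.1 and 91.2 CPM in cold against 1.18 and 2.13 in PEG (4.66 ± 0.50, SE; adjusted p = 0.00817, edgeR). ICS1, the main enzyme of salicylic acid synthesis, had 9.11 and 84.8 CPM against 2.95 and 5.40 (2.87). In both genes the cold libraries were above the PEG libraries, with the lsm1a lsm1b cold library far the highest. PR5, WRKY53 (4.00), PAD4 (2.88) and NPR4 (1.25) were the others. A further 14 members were in the cold files alone, among them PR1 at 4.13 and 121 RPKM in Col-0 and lsm1a lsm1b, BGL2 at 12.4 and 126, and FMO1 at 0 and 3.01. Members low in Col-0, such as FMO1, are in the cold files through the lsm1a lsm1b library alone. The difference between the genotype pairs has 1 library a side and was not tested.

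Jasmonate genes gave 9 higher and 8 lower of 31. The JAZ repressors JAZ9, with 134 and 90.8 CPM in cold against 7.43 and 1.35 in PEG (5.0), and JAZ6 (3.75) were higher, as were LOX4 (2.73) and OPR3 (1.95) of jasmonate synthesis. VSP2, a wound-induced storage protein, had 19.1 and 42.9 CPM against 792 and 244 (-3.93), and VSP1 (-4.04), CYP94B3, which inactivates the hormone (-4.59), and HEL (-2.69) were lower. Of 28 ethylene genes 2 were higher, ERF2 (3.75) and the oxidase ACO4 (2.70), and 4 lower: RAP2.6L (-4.32), the synthase ACS2 (-3.92), RAP2.6 (-2.58) and ERF53 (-1.61), whose ratio was 0.76 without the lsm1a lsm1b PEG library. Auxin and gibberellin genes gave 7 higher, led by GASA1 (2.67), SHY2 (2.63), GASA14 (2.38) and AXR3 (1.70), and 6 lower, led by RGL3 (-1.70), GASA4 (-1.42), TAA1 (-1.35) and GID1B (-1.21), of 33. Of 21 zinc finger, touch and calcium genes 4 were higher, CAM9 (3.37), TCH3 (2.92), CIPK9 (2.32) and CML42 (1.73), and 5 lower, including AZF2 (-3.58), TCH4 (-3.45, the gene also named XTH22), CIPK11 (-2.83) and CIPK6 (-2.30). Senescence genes gave 4 higher and 4 lower of 20, with SAG14 (5.65) and SEN4 (2.15) against the NAC factor ORE1 (-2.44) and SAG20 (-2.29). The shares of the ethylene list (7.14% higher, 14.3% lower) were below those of all genes (17.6% and 17.8%). Those of the jasmonate list (29.0% and 25.8%), the auxin and gibberellin list (21.2% and 18.2%), the zinc finger list (19.0% and 23.8%) and the senescence list (20% and 20%) were at or above them, by at most 12 percentage points, so all 5 lists are described by their members alone.

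Heat shock genes were lower in cold at 9 of 24 and higher at 2 (median -1.16), against 17.8% and 17.6% of all genes tested. The cytosolic chaperone HSP70 had 118 and 141 CPM in cold against 2316 and 1269 in PEG (-3.73 ± 0.42, SE; adjusted p = 0.00887, edgeR), and MBF1C, a coactivator of heat tolerance, had 2.54 and 9.81 against 115 and 92.4 (-4.27). HSFB2A (-2.87) and HSFB1 (-2.65) were lower too, with all PEG libraries above all cold libraries. The members higher in cold were HSP81-2, with 849 and 1065 CPM against 334 and 368 (1.44), and HSP81-3 (0.94), which are cytosolic HSP90 chaperones and near-identical copies. A further 8 members were in the PEG files alone, among them HSP17.4 at 146 and 54.7 RPKM, HSFA6B at 76.7 and 63.5, and HSP17.6A at 67.0 and 21.7.

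Among nutrient genes, phosphate starvation genes were lower in cold at 8 of 17 and higher at 1 (47.1% and 5.88%, against 17.8% and 17.6% of all genes; median -1.44): the phosphatases PS2 (-4.22) and PAP17, with 14.8 and 22 CPM against 275 and 217 (-3.75), the phosphodiesterase GDPD1 (-3.12) and the non-coding AT4 (-2.95) were lower, and PAP10 (1.12) was higher. The transporters PHT1;1 and PHT1;2 were among 5 in the PEG files alone. Iron genes gave 7 higher and 6 lower of 20. The higher members included the ferritin FER3, with 214 and 242 CPM against 14.9 and 13.4 (4.01), NAS3 (3.38), NAS1 (2.38) and YSL1 (2.14). The ferric reductase FRO2 was higher too, with 6.48 and 12.8 CPM against 1.28 and 4.05 (1.97). IRT3 (-3.61), YSL2 (-2.93), ZIP4 (-2.87) and FER2 (-2.84) were lower. The uptake regulators FRU, bHLH38, bHLH39 and BHLH101 and the root transporter IRT1 were among 8 in the PEG files alone, and the leaf reductases FRO6 and FRO7 and the exporter HMA2 were in the cold files alone. Nitrogen genes gave 6 higher, led by AMT1;2 (2.20), AMT2 (2.13), GLU1 (2.08) and GLN1;1 (1.92), and 5 lower, led by NRT1.5, which loads nitrate into the xylem (-4.39), of 28. Sulphur genes gave 6 higher and 6 lower of 22, with APK2 (3.26) and SULTR3;1 (3.09) against the root transporter SULTR1;2 (-4.31) and LSU1 (-3.80). Potassium, sodium and calcium transport gave 5 higher and 6 lower of 25, with the vacuolar exchangers CAX1 (2.81) and CAX3 (-2.23) in opposite order. Aquaporins gave 5 higher and 2 lower of 21, with PIP1;5 (1.65) and PIP1;4 (-1.40) apart, and hypoxia genes 2 higher and 4 lower of 12, with haemoglobin HB2 (2.68) and LBD41 (-2.96). The shares higher and lower were 35% and 30% for iron, 27.3% and 27.3% for sulphur and 16.7% and 33.3% for hypoxia genes. For nitrogen (21.4% and 17.9%), potassium, sodium and calcium (20% and 24%) and aquaporins (23.8% and 9.52%) they lay within 10 percentage points of those of all genes (17.6% and 17.8%), so these 3 lists are described by their members alone.

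Root markers were on the PEG side beside these nutrient genes. PYK10 had 106 and 141 CPM in cold against 1461 and 1351 in PEG, CASP1, which marks the endodermal Casparian strip, 0 and 1.0 against 24.9 and 13.2, and PHT1;4 1.58 and 2.80 against 8.76 and 13.4. All 3 tested root markers were lower in cold (summed level 107 and 145 CPM against 1494 and 1378), and PER64 and IRT1, the other members matched, were in the PEG files alone. The PEG libraries, labelled leaves, thus carried root marker RNA in both genotypes, and its part in the differences of nutrient, LTP and glucosinolate genes was not tested. Of 4 guard cell markers tested 2 were higher in cold, MYB60 with 20.8 and 17.8 CPM against 0.738 and 1.61 (4.09) and FAMA (1.72), and 0 were lower. SLAC1 (0.79) and KAT1 (-0.35, with 1.16 in Col-0 and -1.99 in lsm1a lsm1b) did not pass, and EPF1 was in the cold files alone. The mesophyll markers were higher at 3 of 3. Of the shoot meristem markers KNAT1 was lower (-1.26, 1 of 2 tested), and of the 5 flower markers SEP3 alone was listed, in the cold files at 0.565 and 1.71 RPKM.

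Genes in the files of a single condition were compared by RPKM within those files. Of the 1131 in the cold files alone, 108 had at least 5 RPKM in both libraries, and of the 1697 in the PEG files alone, 358 did. The highest by the lower library were, for cold, GolS3, AT1G65490, the B-box genes BBX28 (128 and 103 RPKM) and BBX16 (67.7 and 47.2), AT3G55580, AT3G09450, ACD6, an ankyrin protein of salicylic acid defence (48.9 and 174), and the plastid transporter PPT2 (45.3 and 62.9). For PEG they were the LEA gene AT3G17520 (2782 and 1775 RPKM), the sugar transporter SAG29 (734 and 544), the glycine-rich AT1G55990 and AT4G33610, AT4G12580, the LEA gene AT3G15670 (287 and 304), NADP-ME1, a cytosolic malic enzyme (259 and 177), and LEA18 (176 and 317). The PEG set thus held 3 LEA genes among its 8 highest and the cold set none, and no test can be made across the 2 file sets for such genes.

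**Figure D5:**
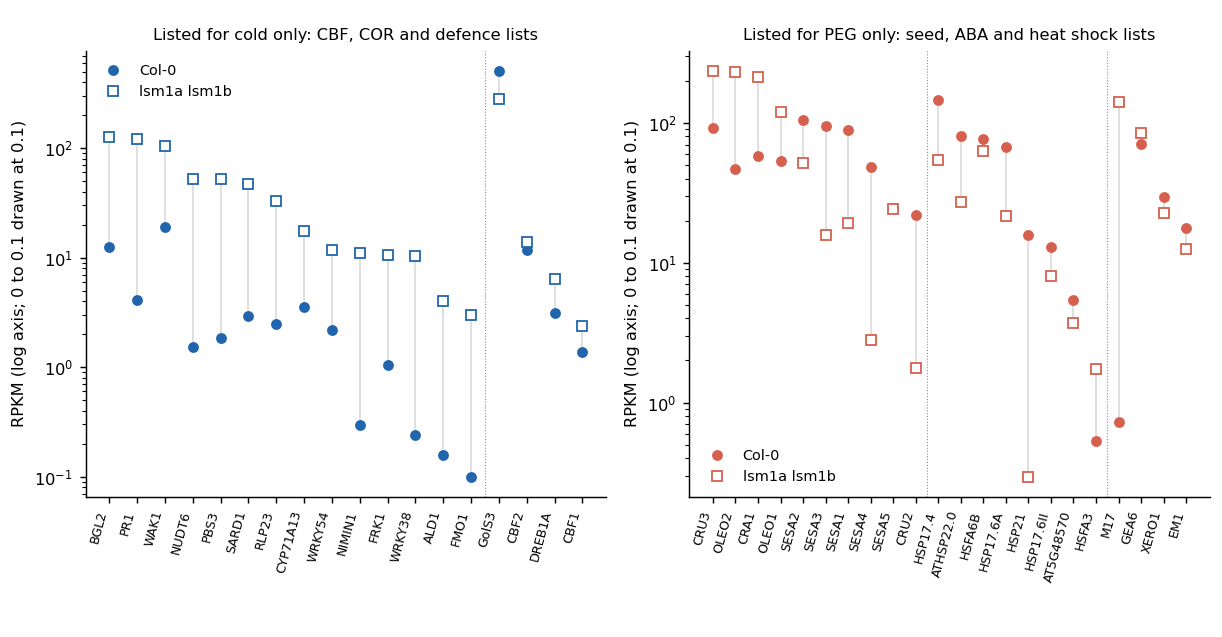
RPKM on a log axis (values from 0 to 0.1 drawn at 0.1) in the Col-0 (filled circles) and lsm1a lsm1b (open squares) libraries for list members found in the cold files alone (left) or the PEG files alone (right). In the cold files the 14 defence members lie higher in lsm1a lsm1b, and GolS3 is higher in Col-0 (503 against 282 RPKM). Every listed gene reached 1.0 RPKM in at least 1 library. Members low in Col-0, such as FMO1, are thus listed through lsm1a lsm1b alone, and the order among them is no separate evidence.

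The cold to PEG ratio was alike in the 2 genotypes at most genes. Across the 16973 genes tested, 82.4% had the same sign in both pairs, and Pearson's r of the 2 ratios was 0.81, a description across genes that share libraries and are not independent replicates. Of the 6005 called genes, 4281 were more than 2-fold apart in the same direction in both pairs. Only 10 nuclear protein-coding genes with at least 5 CPM in the highest library were at least 4-fold apart in opposite directions, and 8 of these were relatively higher in cold in the mutant. They included AT3G13610, an iron-dependent oxygenase, with 0 and 31.5 CPM in cold against 6.74 and 2.65 in PEG. AT5G15360 had the reverse order, with 25.0 and 0.10 CPM in cold against 0.345 and 9.39. Each such contrast rests on 1 library a side and was not tested.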

How the data were processed

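RNA-seq counts of the 2 cold and 2 PEG libraries were used, grouped by their labels. The authors deposited a table of raw read counts for each library, and these counts entered the test unchanged. By the submitters' processing notes, the authors worked with the TAIR10 genome, TopHat2 and DESeq2, without versions. The tool that counted reads, the strand setting, the selection of mRNA and the hour of harvest are not given in the sources used here. Per the file headers the files also hold gene lengths and coordinates, from which RPKM was computed with the deposited counts. Loci were joined by locus code, and 186 had no entry in the reference table and were used by code. No row named no gene.

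Counts were scaled by TMM and tested with edgeR 4.0.16 (R 4.3.3) on genes listed in both conditions: filterByExpr (16973 of 17037 kept), glmQLFit and glmQLFTest with genotype as a block, two-sided, Benjamini-Hochberg adjusted p under 0.05 over all genes tested. There was 1 residual degree of freedom, with 3.39 prior degrees of freedom shared over genes. The genotype pairs the libraries by design. SE is the size of the log2 ratio divided by the square root of F. Ratios within a genotype use log2 CPM with a prior count of 2 and have no test. Counts were simulated with the means and sizes of these libraries and 1 coefficient of variation (0.26) for every gene. They held no genotype effect and 50 changed genes at each fold. The share of these recovered was 16% at 2-fold, 92% at 4-fold and 100% at 8-fold and at 16-fold. The test called 7 of 16763 unchanged genes. In the data the spread differs by gene and 35.4% of genes were called, so these shares do not carry over to them.

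The members and lists were chosen with earlier results of these data known, and no list was tested as a set. Named are LSM1A and LSM1B; the 10 highest and 10 lowest nuclear protein-coding genes past the threshold, over 2-fold in the same direction in both genotypes; up to 4 called members per list and direction; uncalled members of the cold and ABA lists; up to 8 genes listed in 1 condition; and up to 6 genes over 4-fold apart in opposite directions at 5 CPM or more. Others were named after their values were seen. Motifs were searched in 250 upstream bases of TAIR10.1 (RefSeq). Alternatives were DESeq2 1.42.0, limma-voom (limma 3.58.1), DESeq2 size factors, total count scaling, 2 other filters, no genotype block, all 6 libraries, organelle genes left out, 2 other thresholds and each library left out. Figures were drawn with matplotlib 3.10.9.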

Additional observations from a re-analysis of the deposited data

Results flagged for a closer look

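Genes whose cold to PEG ratio had opposite signs in the 2 genotypes, at least 4-fold in each, are given here with the log2 ratio in lsm1a lsm1b minus that in Col-0. There is 1 library per genotype and condition, so the difference was not tested. AT5G15360 had the only negative value among the 6 widest apart, -11.1, with 25.0 CPM in Col-0 cold and 9.39 in lsm1a lsm1b PEG against under 1 CPM in the other libraries. AT3G13610, an iron-dependent oxygenase, differed by 9.22, AT1G23850 (uncharacterised) by 6.37, the methionine sulphoxide reductase MSRB9 by 6.19, AT2G45220 of the pectin methylesterase family by 6.14 and AT2G44370 of the C1 domain family by 5.85. In these 5 genes the lsm1a lsm1b cold library was the highest of the 4, for instance with 69.9 CPM for AT2G45220 against 2.63 in Col-0 cold, 19.4 in Col-0 PEG and 6.90 in lsm1a lsm1b PEG. At a minimum of 20 CPM, 6 of the 10 genes with opposite signs were left.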

How the results depend on the processing

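The counts of genes higher and lower in cold stayed within 1.5 times of 2985 and 3020 under other scaling, filters, tools and gene sets, from 2561 higher and 2472 lower (2-fold minimum) to 3708 and 3706 (all 6 libraries). At an adjusted p under 0.01 edgeR called 723 higher and 654 lower. Total count scaling moved the median log2 ratio of all genes to -0.16 and gave 2565 higher against 3618 lower, 41.5% of calls higher in place of 49.7%. Without the replicate block, that is without the genotype term that pairs the libraries, 2741 were higher and 2720 lower, and 5185 of the 6005 calls were shared. DESeq2 called 2792 higher and 2674 lower, and limma-voom 3340 and 3248. Using only genes of equal length in both file sets changed nothing, since all 17037 had equal lengths. Leaving out a library in turn gave 0 to 2637 higher and 0 to 2456 lower. These fits also lack the genotype block, which 3 libraries cannot carry. The 2 settings with 0 calls were those without a PEG library, whose lone partner is assumed to vary like the cold libraries. At least 20 CPM left 6 genes of opposite sign. Of 334 named genes, 294 kept their call without the replicate block, 36 lost it and 3 gained it (RD29A, ERD14 and RD22). Among the lists, leaving out the block moved the count higher in cold from 6 to 1 for ABA synthesis, 4 to 2 for galactinol and for zinc finger genes, 5 to 2 for aquaporins, 7 to 4 for auxin and 8 to 5 for flavonoid genes, and the count lower in cold from 8 to 5 for jasmonate and 4 to 2 for ethylene genes. Total count scaling gave 3 aquaporins higher and 5 lower, DESeq2 gave 7 senescence genes lower, and all 6 libraries gave 11 antioxidant genes lower. DESeq2 and limma-voom each gave 4 heat shock genes higher. In lists other than these, counts that moved by over 1.5 times were of at most 6 genes. Signs turned for the following named genes. ZAT12 was at 0.31 without the replicate block and at 0.069 with all 6 libraries, and COR27 was at 0.030 with all 6. With a library left out, log2 ratios ranged from -3.70 to 0.76 for ERF53, -1.46 to 0.18 for PYL1, -1.58 to 0.42 for NAC019, -0.94 to 0.14 for PYL5, -1.80 to 1.13 for ZAT12, -0.62 to 0.15 for LTI30, -0.45 to 0.015 for LEA14, -0.60 to 0.16 for ABF1, -0.49 to 0.19 for COR47, -0.94 to 0.57 for COR27, -0.16 to 0.027 for PYL4, -0.49 to 0.36 for COR413-PM1, -0.30 to 0.24 for MYB44, -0.040 to 0.39 for COR413IM2, -0.21 to 0.64 for ERD7, -0.43 to 1.21 for ICE2, -0.15 to 1.14 for COR413IM1 and -0.82 to 5.96 for NCED5. The cause was not tested.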
